A study of Mus musculus with 6 samples.

Results

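The 3 mice of this series that received DMSO were described here on their own: which transcripts gave the highest signal in their livers, and which differed between one mouse and another. They make up 3 of the 6 samples. On the array used, 21379 of 55681 non-control probes were well above background in all 3 livers, and these probes represented 16392 genes or other transcripts. Each gene was represented by its brightest probe.

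All 6 mice were of strain C57BL6/J. The mice described here were given DMSO by mouth and were killed 2 h later, and the other 3 received CBZ and were not analysed here. RNA came from whole liver, so every cell type of the organ contributed to it, and 100 ng per mouse was labelled with Cy3 and hybridised to a 1-colour Agilent array. The labels used here give neither sex nor age, and no untreated mouse was analysed, so these livers are a reading 2 h after DMSO rather than of an undisturbed animal.

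Most of the liver's mass is hepatocytes, which secrete the bulk of the proteins of blood plasma, store and release glucose, build and oxidise fat, dispose of amino acid nitrogen as urea and oxidise foreign compounds with cytochromes P450. The remaining cells include Kupffer cells, which are the macrophages resident in the sinusoids, the sinusoidal endothelium, the stellate cells and the epithelium of the bile ducts. Many liver transcripts also follow the time of day and the last meal.

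Values are log2 signals relative to the 75th percentile of the non-control spots of the same array, so that 0 is that percentile and 1 unit is a factor of 2. With 1 array per mouse, a difference between mice and a difference between arrays cannot be told apart, and with a single group there is no comparison to test, so the spread is given as SD or as range (highest minus lowest of 3). Mice 1, 2 and 3 are the DMSO replicates numbered so in the labels. The 3 arrays shared 1 slide and had 43.0%, 44.7% and 43.5% of spots well above background, 75th percentiles of 173 to 180 intensity units and no saturated spot. Across the 21379 probes the Pearson correlation of the arrays, which share probe-specific brightness, was 0.991 to 0.994.

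The arrays differed in the lower part of the signal: the 75th percentile was 5.81, 4.96 and 4.28 times the array's median in mice 1, 2 and 3. Scaling by the median instead put the median gene's deviation from its 3-mouse mean at 0.25, 0.01 and -0.25 log2 units in the 3 mice, from 0.03, 0.01 and -0.03. Mouse 1 was the highest mouse in 39.5% of all genes as scaled here, in 77.7% under scaling by the median, in 29.4% after quantile normalisation and in 41.7% with normexp background correction. Each list of genes was therefore also read relative to the median gene of the same mouse.

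A bright patch was found on the array of mouse 2. In a block of 108 neighbouring spots, 22 were at least 3 log2 units above both other arrays, among them 2 spike-in control spots, which carry no liver sequence. On the rest of that array of 62976 spots only 6 others stood so far above. The 2 transcripts of largest spread lay in this block. One is the non-coding clone E030025P04Rik, chosen here after its values were seen, at -1.33, 8.48 and -0.67 in mice 1, 2 and 3. The other, an unnamed transcript on chromosome 5, stood at -0.72, 7.36 and -0.10. Both high values belonged to mouse 2. Both transcripts are included in the counts of genes by range below and are not described further. On the array of mouse 1, 14 of 15 such spots lay within 3 rows and columns of another, and on that of mouse 3, 0 of 5. Leaving out every spot within 3 rows and columns of one of these bright spots brought the count of genes with a range of 1 or more from 359 to 349. This left out 66, 144 and 98 spots for mice 1, 2 and 3, including spots near a lone bright spot. Below, a probe beside a bright patch means any probe left out in this way.

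The markers of the labelled tissue were present. All 15 hepatocyte markers were measured, of which 9 lay among the 500 brightest genes, and Alb, encoding albumin, stood at 10.38, 10.33 and 10.17. Hnf4a, the nuclear receptor that maintains hepatocyte identity, was at 7.61, 7.62 and 7.55. Of 24 pancreatic markers, 23 were on the array, 17 were not measured and 7 were measured, with mean signals from -1.18 to 4.17. Over the whole array, 21379 of 55681 probes were measured. The probes for the proteases Prss1, Cpa1, Cela1 and Cela2a were not well above background in any mouse, which was also the case for the fat cell hormone Adipoq. The Y-linked genes Ddx3y and Eif2s3y were measured in all 3 mice, at 2.49, 2.58 and 2.31 and at 2.94, 2.88 and 2.84, whereas the other 2 Y-linked genes listed, Kdm5d and Uty, were not well above background in any. Neither of 2 probes for Xist was well above background in any mouse.

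The mean signal of the 16392 genes spanned 12.63 log2 units, from -2.05 to 10.57 with a median of 1.17. The signal was concentrated: the 25 brightest genes held 6.77%, 6.89% and 7.19% of the summed signal of mice 1, 2 and 3, and the brightest 500, which are 3.05% of genes, held 51.2%, 51.7% and 51.3%. Mice ranked these genes alike, since 20 of the 25 brightest and 467 of the 500 brightest were shared by all 3.

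Secreted proteins led the ranking. Of the 25 brightest, 23 carried a gene name. The alpha-1-antitrypsin family, inhibitors of neutrophil elastase, supplied Serpina1c at 10.59, 10.57 and 10.56, Serpina1e at 10.45, 10.53 and 10.41, and with them Serpina1a and Serpina1d. These 4 genes are near-identical copies, so their probes may read one another's transcripts. They were followed by Apoa2 and Apoe, protein components of lipoproteins, at means of 10.43 and 10.35, by Serpina3k at 10.41, by the complement component C3 at 10.37 and by Alb at 10.29. Further down among the 25 came Ambp, the precursor of alpha-1-microglobulin, Fgb, a chain of fibrinogen, Hpx, the haem scavenger hemopexin, and Ahsg, fetuin A.

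Not all of the brightest probes were for secreted proteins. Bhmt, which remethylates homocysteine, stood at 10.22, 10.28 and 10.16, and Ass1, the urea cycle enzyme that joins citrulline to aspartate, at 10.13, 10.11 and 10.12. Gpx1, a selenium-dependent peroxidase, had a mean of 10.14, and Cox6a1, a subunit of cytochrome oxidase, was the last of the 25. Each of these 4 lay within 0.16 log2 units across the 3 mice.

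A rank of probe signal is not a rank of transcript number, because each probe binds with its own strength. Among 2866 named genes with several measured probes, the brightest exceeded the second by a median of 1.40 log2 units, and in 601 by 3 or more. Slc10a1, the main uptake carrier for bile acids, was 17th by a probe at 10.11, 10.10 and 10.15, while its other probe read 6.18, 5.99 and 5.49. Kctd14 was among the 25 by 1 probe at a mean of 10.03, and its other 2 probes were not well above background on any array. By contrast, the second probe of C3 lay only 0.29 below the first and that of Ass1 0.31 below.

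**Figure D1:**
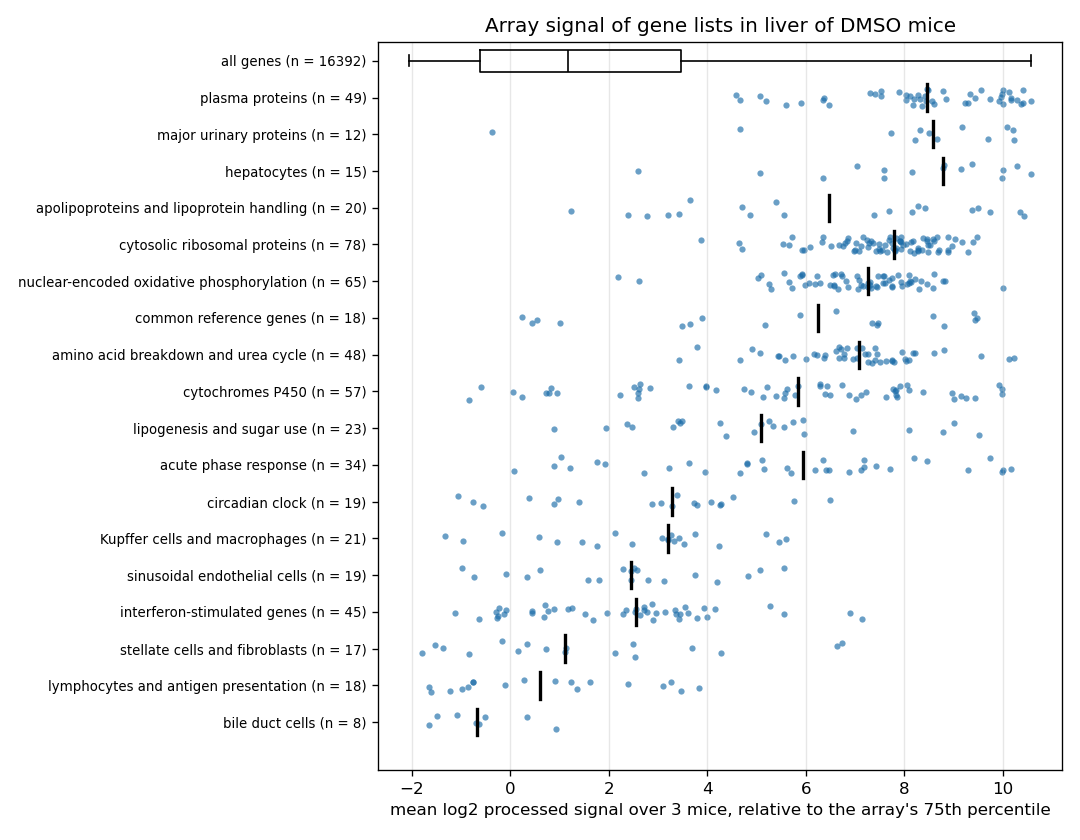
Mean log2 processed signal over the 3 DMSO mice for the measured members of 18 gene lists (points, 1 per gene; vertical bars are list medians), relative to the array's 75th percentile; the box shows quartiles, median and full range of all 16392 genes. Plasma proteins, with a median of 8.47, and major urinary proteins, with 8.59, sit near the top of the range, and bile duct markers, at -0.67, sit below the median of all genes.

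By group, 36 of 49 plasma protein genes lay among the 500 brightest, and their median signal was 8.47, against 1.17 for all genes. Genes of clotting covered much of the range of this list. The fibrinogen chains Fgb and Fgg had means of 10.16 and 9.74 and the third, Fga, 6.36, the factors F10, F2 (prothrombin) and F12 had means of 8.45, 8.35 and 7.90, and F5, F7, F11 and F9 of 5.60, 5.18, 5.07 and 4.66. Apolipoproteins ran from Apoa2 and Apoe at the top, through Apoc3 at 9.75 and Apoa1 at 9.38, to Apoa5 at 4.70, and Mttp, which loads lipid on apolipoprotein B, was lower, at 3.20.

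The major urinary proteins, pheromone carriers that the liver secretes for excretion in urine, gave 12 measured genes with a median of 8.59, led by Mup1 at 10.23, Mup19 at 10.21 and Mup20 at 10.09. Their sequences are nearly alike and they are best read as a family. One probe of it varied between mice: Mup19 read 10.33, 10.45 and 9.84, low in mouse 3, where Mup1 read 10.22, 10.26 and 10.22.

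Among cytochromes P450, 57 of 66 listed genes were measured. Cyp2e1, which oxidises ethanol and small solvents, had a mean of 9.98 with an SD of 0.02 (n = 3), and Cyp2d26 and Cyp2d11 means of 9.98 and 9.92. Cyp3a11, a broad drug oxidase, had a mean of 9.16. The P450s of bile acid synthesis had means of 6.49 for Cyp7b1, 4.74 for Cyp27a1 and 3.63 for Cyp8b1, and Cyp7a1, the rate-limiting enzyme, read 2.87, 2.73 and 2.17. These values are levels of single probes.

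Promoters of the brightest genes were compared with those of all measured genes, using RefSeq sequences (GRCm38.p6) from 250 bases before to 50 after the start, which matched 76 of the 100 brightest named genes and 9081 measured named genes in all. The letters TATAAA, the core of the TATA box, occurred on either strand in 17 of the 76 (22.4%), against 8.28% of all measured named genes and 14.2% of the 27025 promoters in the table. CCAAT occurred in 38 of the 76, against 38.1% of measured named genes, and GGGCGG, the core of GC boxes typical of broadly expressed genes, in 34.2%, against 61.5%. A strict form of the HNF1 motif was found in 1 of the 76, against 0.0661%, and TTGCGCAA, a form of the C/EBP site, in 0 of 76, against 0.264%. These are matches of letters, with no binding measured. To show what such a match looks like, the 100 bases before the start of the 3 brightest P450 genes are given 5′ to 3′ on the gene's strand, with TATAAA or its reverse complement TTTATA in capitals. They lie at chr7:140763719-140763818 on the plus strand, chr15:82794246-82794345 on the minus strand and chr15:82394023-82394122 on the minus strand.
Cyp2e1: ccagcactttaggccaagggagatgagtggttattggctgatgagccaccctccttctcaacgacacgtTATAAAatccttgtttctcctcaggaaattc
Cyp2d26: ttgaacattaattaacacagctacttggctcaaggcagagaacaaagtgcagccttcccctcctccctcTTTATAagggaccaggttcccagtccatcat
Cyp2d11: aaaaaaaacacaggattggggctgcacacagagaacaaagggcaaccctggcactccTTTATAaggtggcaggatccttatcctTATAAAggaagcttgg

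In Cyp2e1 the match began 31 bases before the start. In Cyp2d26 the letters were on the opposite strand, and Cyp2d11 held a match on each strand.

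Lists of shared cell machinery were bright and steady. Cytosolic ribosomal proteins had a median signal of 7.78 and a median SD of 0.055 over 78 genes, and the nuclear-encoded subunits of oxidative phosphorylation 7.26 and 0.062 over 65. Common reference genes, used to scale other assays, had a median SD of 0.088 over 18 genes, with Gapdh at 9.49, 9.40 and 9.36, Actb at 8.79, 8.76 and 8.88 and Tbp, the TATA-binding protein, at 0.46, 0.31 and 0.56. None of these 3 lists held a gene with a range of 1 or more, which was also rare among all genes of such signal, at 0.811% of those from 6 to 8.

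Over all genes the median SD between mice was 0.17 and the median ratio of the highest to the lowest mouse was 1.25. A range of 1 or more, that is a 2-fold difference, was seen in 359 of 16392 genes (2.19%), of which 209 carried a gene name, and a range of 2 or more in 14 (0.0854%). Spread depended on signal. The share with a range of 1 or more was 1.37% of genes at or above the 75th percentile of the array and 3.72% of those below it, and it was 0 of 412 genes at 8 or higher. A gap of 2-fold or more separated mice 1 and 2 in 92 genes, 55 higher in mouse 1 (0.336%) and 37 higher in mouse 2 (0.226%). It separated mice 2 and 3 in 155, with 75 higher in mouse 2 (0.458%) and 80 in mouse 3 (0.488%). For mice 1 and 3 the count was 208, with 68 higher in mouse 1 (0.415%) and 140 in mouse 3 (0.854%). That direction depended on the scaling: 744 were higher in mouse 1 and 9 in mouse 3 under scaling by the median, 83 and 56 after quantile normalisation, and 38 and 6 with normexp.

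Repeated spots gave the error within an array. For 139 probes with 10 usable spots each, the median SD of the spots was 0.054, and the SD of the same probes between mice was 0.13 and exceeded the spot SD in 116 (83.5%). Of these 139 probes, 0 had a range of 1 or more, against 2.19% of all genes. The extraction software's own error, a median of 0.149 over all kept spots, was above both SDs. Probes with fewer spots were not covered. Igtp, an interferon-induced GTPase, read 4.57, 3.67 and 3.58, with spot SDs of 0.047, 0.040 and 0.087. C1qc, a chain of complement C1q made by macrophages, read 3.74, 3.03 and 3.00, with spot SDs of 0.049, 0.027 and 0.062. In both, mouse 1 was above the other 2 mice, which were close to each other. Cdkn1a, the cell cycle inhibitor p21, read 2.87, 2.96 and 3.72 and was instead highest in mouse 3, with spot SDs of 0.017, 0.053 and 0.020.

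**Figure D2:**
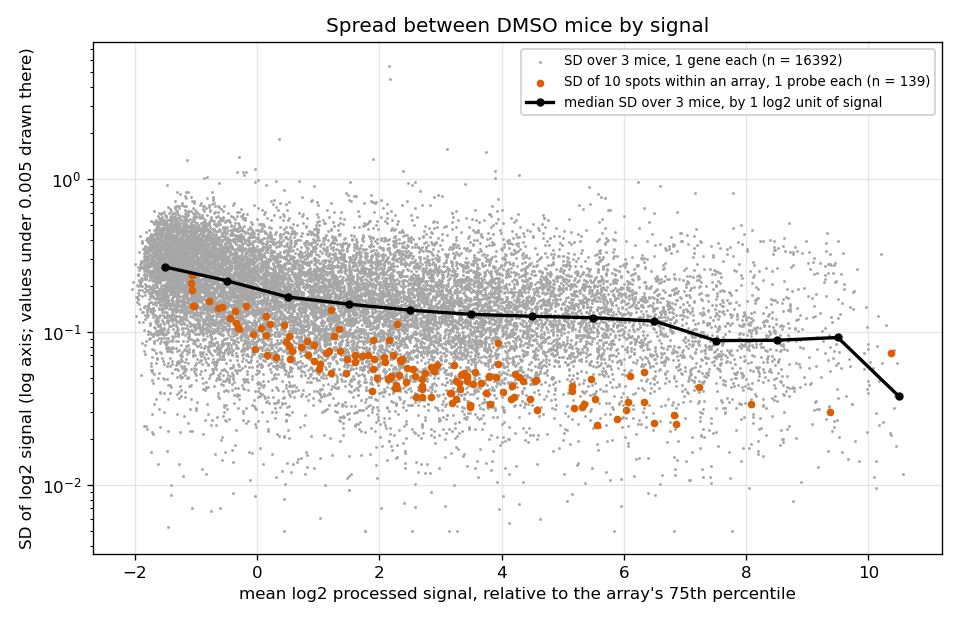
SD of log2 signal over the 3 DMSO mice (vertical log axis) against mean log2 signal relative to the array's 75th percentile, 1 grey point per gene; the black line joins medians by 1 log2 unit of signal, and orange points are SDs of 10 spots of 1 probe within an array. The median falls from 0.26 in the dimmest bin to 0.038 in the brightest, and most orange points lie below the line.

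The named genes of largest spread came from several kinds of cell and pathway. S100a9, a calcium-binding protein of neutrophils and monocytes, read 1.12, 1.65 and -1.72. It was 10.4 times lower in mouse 3 than in mouse 2, and its partner S100a8 was well above background in mice 1 and 2 and not in mouse 3. The other 6 measured neutrophil and monocyte markers had a range under 1.

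Asns, asparagine synthetase, a target of the amino acid response, read 3.36, 4.52 and 1.42, an 8.57-fold span with mouse 2 highest and mouse 3 lowest. Of other genes tied to that response, Ddit3, encoding CHOP, had the same order of mice with a smaller span, at 0.86, 1.42 and 0.65. Atf3 read -0.90, -0.51 and -0.98, Chac1 2.32, 2.03 and 2.01 and Trib3 1.90, 1.44 and 2.15, and in these 3 the lowest or the highest mouse differed between scalings. Ptgds, prostaglandin D2 synthase, read 1.45, 0.82 and 3.40, highest in mouse 3. So did Tff3, a trefoil peptide of mucous epithelia, with 2.70, 4.07 and 4.92, here with all 3 mice apart.

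Rgs16, a regulator of G protein signalling, G0s2, an inhibitor of adipose triglyceride lipase, and Cyp26b1, which degrades retinoic acid, were all lowest in mouse 2. Rgs16 read 2.73, 1.12 and 3.30, G0s2 4.66, 2.74 and 4.26, and Cyp26b1 3.26, 1.49 and 2.99. In each of these the other 2 mice lay within 0.57 of each other. Erdr1, at 7.17, 7.06 and 5.57, was lowest in mouse 3.

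Among genes below the 75th percentile, Cxcl10, a chemokine induced by interferon, read 1.04, -0.85 and -0.88, Cd300e, a receptor of monocytes, 0.24, -1.11 and -1.74, and Pde5a, a cGMP phosphodiesterase, 0.57, -1.13 and 0.44. Mouse 1 was highest in these 3. Spink1, a trypsin inhibitor, read -0.45, -1.13 and 0.94, with mouse 3 highest.

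Some genes of an X-linked family were highest in mouse 2. Xlr3b and Xlr4a are members of a family named for lymphocyte-regulated expression, whose biochemical role is little known. Xlr3b read -0.29, 1.23 and -1.06, and Xlr4a -2.09, 0.36 and -1.70. Their second probes and the probe of Xlr4b, named after its values were seen, were not well above background in every mouse, and all 3 were also highest in mouse 2, at 1.29, -0.19 and 1.56. Xlr5a was well above background in mouse 2 alone, at -1.61, and Xlr3a and Xlr5b in no mouse. The 4 probes of Xlr3b and Xlr4a lie on chromosome X between 70319816 and 70448146 in the mm9 coordinates of the array. Neither of the measured ones lay beside a bright patch. The family members are close in sequence, so these probes may not be independent measures.

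**Figure D3:**
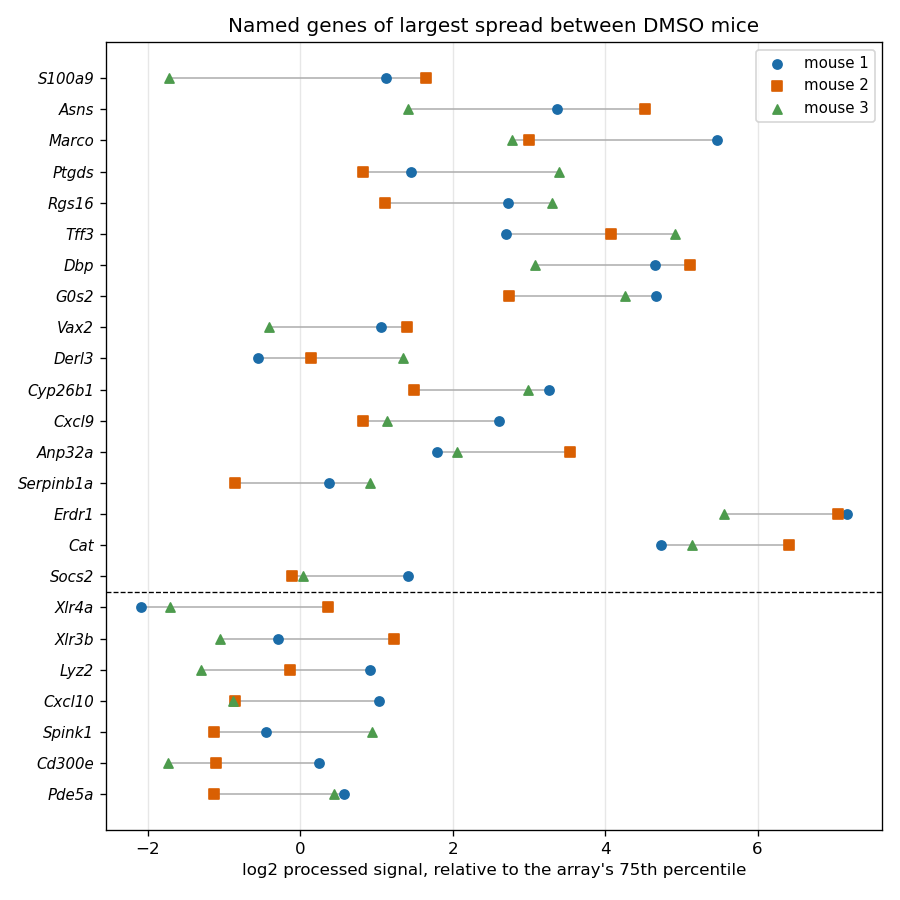
Log2 processed signal, relative to the array's 75th percentile, of the named genes of largest SD over the 3 DMSO mice, with mouse 1 as circles, mouse 2 as squares and mouse 3 as triangles; the dashed line separates 17 genes with a mean of 0 or higher from 7 below it. S100a9 spans 3.38 log2 units with mouse 3 lowest, and Marco 2.70 with mouse 1 highest.

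Second probes did not bear out every case. For Cat, catalase, the brighter probe read 4.74, 6.42 and 5.13, with mouse 2 high, while the other read 5.09, 5.06 and 4.80. For Socs2, a suppressor of growth hormone signalling, the probe with the highest mean read 1.42, -0.11 and 0.03, and the other measured probes 0.09, 0.14 and 0.27 and 0.06, 0.32 and 0.25. The Cat and Socs2 probes that varied lay beside a bright patch, and without such spots the range was 0.28 in place of 1.68 for Cat and 0.26 in place of 1.53 for Socs2. Dbp, whose brighter probe also lay beside one, and Cxcl9 kept their pattern in a second probe. Anp32a, high in mouse 2 at 3.53 by 1 probe, had another that was not well above background on any array. Over the 34 named genes whose brightest probe had a range of 1 or more and that had another measured probe, 18 (52.9%) had the same highest and lowest mouse in it, against 1060 of all 2866 such genes. The second probe itself had a range of 1 or more in only 11 of the 34 (32.4%), against 52 of the 2866 (1.81%).

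Macrophage genes gave the largest shift of a list. Of 22 markers of Kupffer cells and macrophages, 21 were measured, and mouse 1 was the highest in 21 of 21, against 39.5% of all genes. The mean of their deviations from the 3-mouse mean was 0.61 in mouse 1, -0.23 in mouse 2 and -0.38 in mouse 3. Relative to the median gene of each mouse the levels were 0.58, -0.24 and -0.35. A range of 1 or more was seen in 7 of the 21 (33.3%), against 2.19% of all genes, and the median SD was 0.50, against 0.17. Between mice 2 and 3 alone the list differed by only 0.15. In whole liver, more cells of a type and more RNA per cell cannot be told apart.

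Marco, a scavenger receptor of Kupffer cells, read 5.47, 2.99 and 2.77. Mouse 1 stood apart and the other 2 were close. Folr2, a folate receptor of resident macrophages, and Cd5l, a secreted macrophage protein, also had a range of 1 or more, and Adgre1, which encodes the F4/80 antigen, read 2.37, 1.07 and 0.89. Lyz2, lysozyme, read 0.92, -0.14 and -1.31, with all 3 mice apart. The Kupffer cell lectin Clec4f differed less, at 5.61, 5.08 and 4.86, as did Cd68, at 2.66, 2.43 and 2.31. The receptor for colony-stimulating factor 1, Csf1r, read 6.19, 5.33 and 5.26, and its other 2 probes read 1.86, 1.15 and 0.49 and 0.81, 0.42 and 0.19. All 4 further probes measured for 3 genes of the list were highest in mouse 1.

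**Figure D4:**
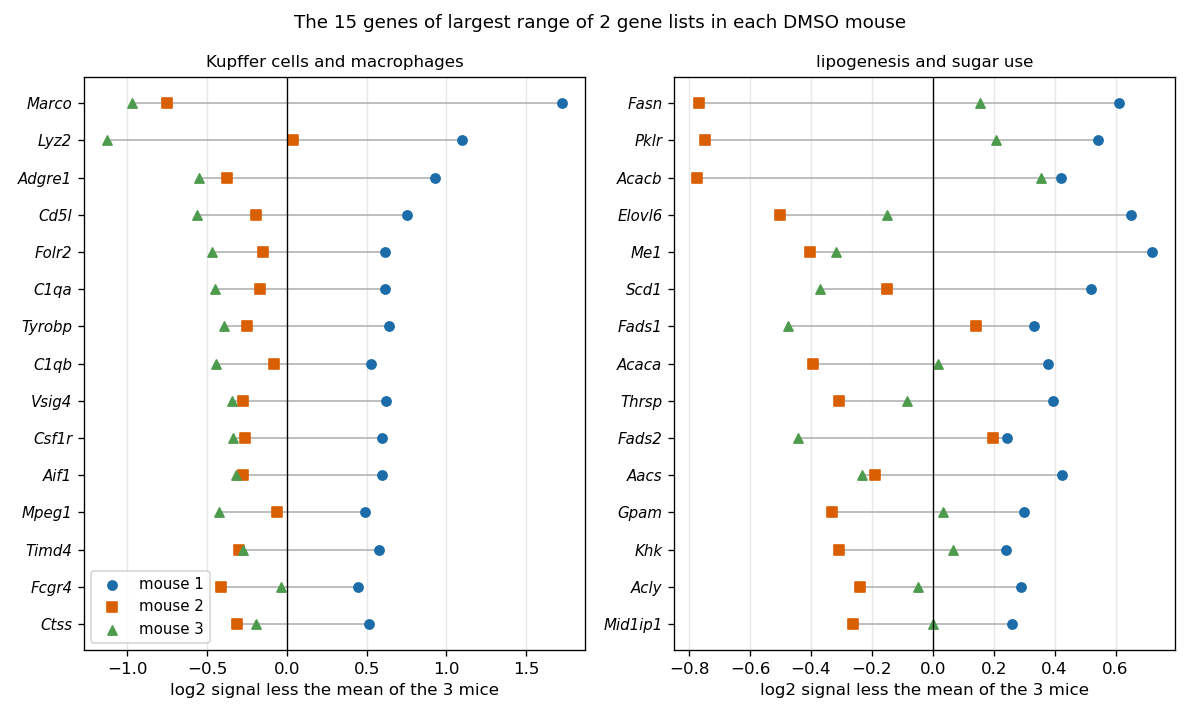
Log2 signal less the gene's mean over the 3 DMSO mice, for the 15 genes of largest range among Kupffer cell and macrophage markers (left) and genes of lipogenesis and sugar use (right), with mouse 1 as circles, mouse 2 as squares and mouse 3 as triangles. Mouse 1 is the highest in all 15 genes on each side; over the full lists it is the highest in 21 of 21 and in 19 of 23.

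Interferon-stimulated genes were also highest in mouse 1, in 34 of 45 measured members, against 39.5% of all genes. List levels were 0.28, -0.07 and -0.21, and 5 (11.1%) had a range of 1 or more, against 2.19% of all genes. Cxcl9, a chemokine that attracts T cells, read 2.61, 0.83 and 1.14, and its other probe 1.17, -0.47 and -0.13. Tgtp2, a T cell-specific GTPase, read 3.76, 2.33 and 2.61, and Gbp7, a guanylate-binding protein, -0.14, -0.59 and -1.17. Other members were close in all 3 mice, such as Stat2, at 3.53, 3.65 and 3.65. Antigen presentation genes had the same high mouse. H2-Ab1 read 4.40, 3.27 and 3.83, H2-Eb1 3.90, 2.69 and 3.18, and their chaperone Cd74 3.93, 2.97 and 3.48. Over the whole list of lymphocyte and antigen presentation genes, mouse 1 was the highest in 13 of 18, against 39.5% of all genes. The 3 with a range of 1 or more (16.7%, against 2.19% of all genes) were H2-Aa, H2-Ab1 and H2-Eb1. The T cell genes Cd4 and Cd3e read 3.12, 3.11 and 3.04 and 1.14, 1.34 and 1.23, within 0.20 in each, and the chemokine Ccl5 2.08, 1.36 and 1.41. Other T cell and cytotoxic cell genes had no common order of mice. Lck and Gzma were highest in mouse 1 under each scaling and with normexp. Cd3d, with a probe beside a bright patch, was highest in mouse 3 and lowest in mouse 2 under the same settings. The part of macrophage RNA in the interferon and antigen presentation values was not tested.

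Endothelial markers were highest in mouse 1 in 14 of 19 genes and lowest in mouse 3 in 14, against 39.5% and 45.9% of all genes. List levels were 0.22, 0.01 and -0.23, and none had a range of 1 or more. Clec4g, a sinusoidal lectin, read 5.90, 5.65 and 5.14, and the hyaluronan receptor Stab2 4.46, 4.26 and 3.83. The pan-endothelial marker Pecam1 read -0.76, -0.72 and -0.76. Of 4 further probes for 3 genes of the list, including 2 for Stab2, only 2 were highest in mouse 1 and 1 lowest in mouse 3. Stellate cell and fibroblast markers had levels of -0.03, -0.09 and 0.12. A range of 1 or more was seen in 1 of 17 (5.88%, against 2.19% of all genes), Acta2, the smooth muscle actin, at -0.09, 0.05 and 1.05.

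Bile duct markers were dim and highest in mouse 3 in 6 of 8 measured genes, against 33.3% of all genes. The keratins Krt19 and Krt23 read -0.81, -1.18 and -0.13 and -0.63, -1.21 and -0.07. Epcam was not well above background in any mouse, and under scaling by the median the list's highest mouse became mouse 1, by 0.11 against 0.10. Relative to the median gene of each mouse, mouse 3 was the highest under both scalings, at 0.34 against -0.14 in mouse 1. Globin transcripts of red cells were highest in mouse 2. Hba-a1 read 7.69, 8.49 and 7.59, Hbb-bt 6.03, 6.79 and 5.92, and Hba-a2 9.20, 9.74 and 9.16. Mouse 2 was the highest in 9 of 11 red cell genes, against 27.2% of all genes, and mouse 3 in the other 2, Klf1 and Ermap. Several of the 11 are globin genes close in sequence, so their probes may not be independent measures. How much blood was in each piece of liver is not recorded in the labels, and its part in other results was not tested.

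Fat synthesis separated mouse 1 from mouse 2. Of 23 measured genes of lipogenesis and sugar use, mouse 1 was the highest in 19 and mouse 2 the lowest in 15, against 39.5% and 25.2% of all genes. List levels were 0.30, -0.25 and -0.06, and 5 (21.7%) had a range of 1 or more, against 2.19% of all genes. Of 12 further probes for 10 genes of the list, only 6 were highest in mouse 1, and 9 were lowest in mouse 2. Fasn, fatty acid synthase, read 2.56, 1.18 and 2.11, and Acacb, an acetyl-CoA carboxylase, 5.68, 4.48 and 5.61. In both, mouse 2 lay below the other 2. Malic enzyme Me1, which supplies NADPH, read 6.46, 5.34 and 5.42 by its brightest probe, where mouse 1 stood apart. Its other probes read 5.36, 4.49 and 4.96 and 4.92, 4.05 and 4.49, with mouse 3 between mice 1 and 2. For the elongase Elovl6, at 4.92, 3.76 and 4.12, mouse 1 stood apart. Pklr, liver pyruvate kinase, read 2.91, 1.62 and 2.57.

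Regulators of these enzymes differed less: Srebf1 read 2.66, 2.54 and 2.23, and Mlxipl, encoding ChREBP, 6.86, 6.89 and 7.10. Txnip, a glucose-responsive gene on the fasting list, read 3.02, 1.64 and 2.68, again lowest in mouse 2. Genes induced in fasting had no common order of mice. Pck1, the gluconeogenic enzyme that insulin represses, read 9.59, 9.58 and 9.49, whereas Cyp4a14, a fatty acid hydroxylase under PPARα, read 5.52, 4.82 and 6.41 and Irs2, an insulin receptor substrate, 3.73, 3.15 and 4.22. The hour of death and the feeding state of each mouse are not in the labels used here.

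**Figure D5:**
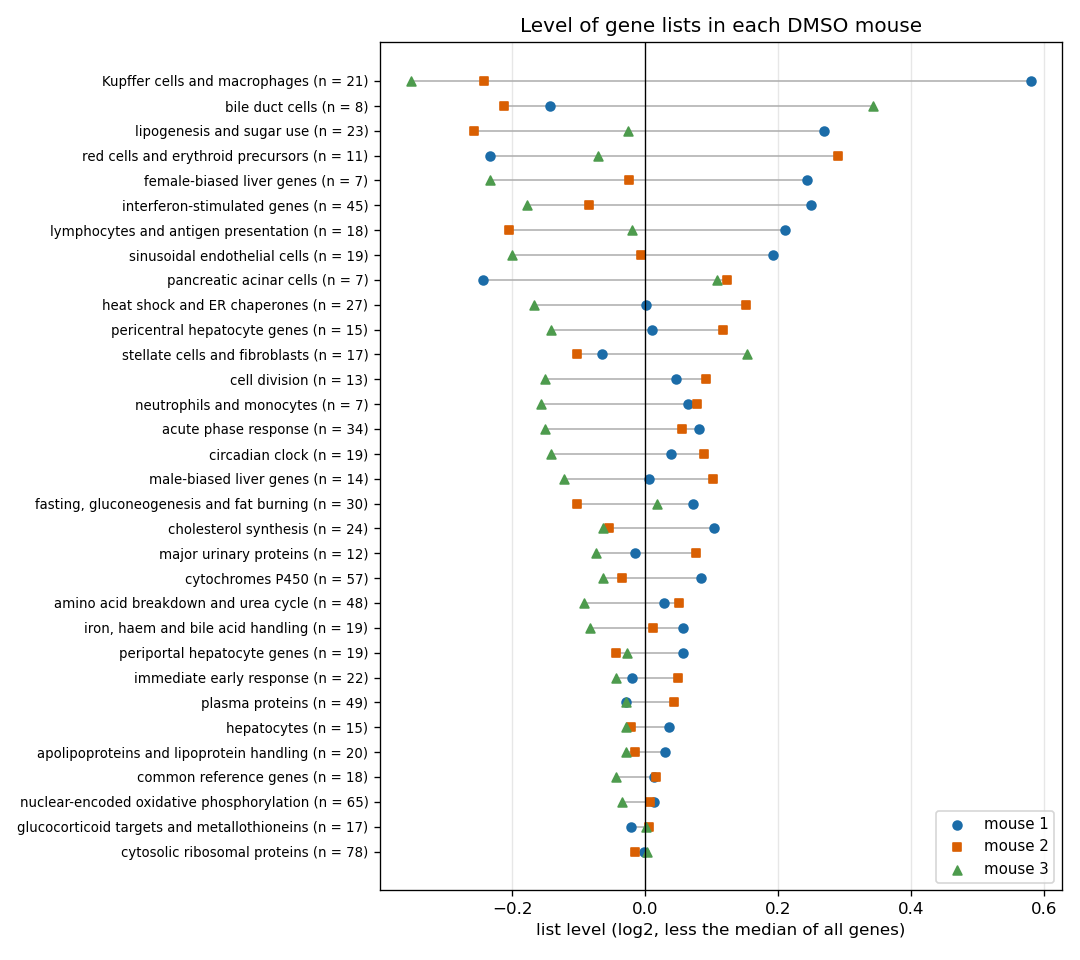
Level of each gene list in DMSO mouse 1 (circles), mouse 2 (squares) and mouse 3 (triangles): the mean over the list of log2 deviations from the 3-mouse mean, less the median deviation of all genes in that mouse; lists with at least 7 measured genes are ordered by range. Kupffer cell and macrophage markers span from -0.35 to 0.58, while ribosomal proteins, oxidative phosphorylation and reference genes lie close to 0 in all 3 mice.

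Among clock genes the spread lay mainly in 1 output gene. Dbp, a transcription factor that the clock drives directly, read 4.65, 5.11 and 3.08, and its other probe 4.26, 4.68 and 2.77, so that mouse 3 was lowest by both. Tef, its relative, read 6.62, 6.72 and 6.14, and the nuclear receptor genes Nr1d1 and Nr1d2 read -0.47, -0.70 and -1.12 and 1.11, 1.16 and 0.37, likewise lowest in mouse 3. Arntl, encoding BMAL1, read 1.42, 1.02 and 1.74, highest in mouse 3 except under scaling by the median, where mouse 1 was. Per1, at 4.40, 4.74 and 4.46, and Clock, at 0.85, 0.98 and 1.05, did not follow Dbp. Of the 19 measured clock genes, Dbp alone had a range of 1 or more (5.26%, against 2.19% of all genes). Mouse 3 was the lowest in 10, against 45.9% of all genes.

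Of the 57 measured P450 genes, 4 (7.02%, against 2.19% of all genes) had a range of 1 or more, namely Cyp26b1, Cyp4a14, Cyp2b10 and Cyp7b1. Cyp2b10, which the xenobiotic receptor CAR induces, read 6.34, 4.83 and 5.70, and Cyp7b1, a steroid hydroxylase, 6.37, 7.15 and 5.97. The bright members, such as Cyp2e1 and Cyp2d26, had SDs of 0.02 and 0.04. Oat, ornithine aminotransferase of pericentral hepatocytes, read 6.08, 6.54 and 5.41 and was the 1 gene of 48 for amino acid breakdown with a range of 1 or more (2.08%, close to the 2.19% of all genes).

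Acute phase genes, which hepatocytes induce in inflammation, were lowest in mouse 3 in 25 of 34 measured members, against 45.9% of all genes; mouse 1 was the lowest in 3, against 28.9%. Nnmt, nicotinamide N-methyltransferase, read 5.85, 6.35 and 4.88, and Hamp2, a relative of the iron hormone hepcidin, 7.37, 7.05 and 6.19. Saa3 read 2.48, 1.27 and 1.99. The 7 members with a mean of 8 or higher had ranges of 0.066 to 0.23, among them haptoglobin, Hp, at 9.98, 10.04 and 9.96.

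The steadiest genes at or above the 75th percentile included Eno3, an enolase of muscle and liver, at 1.77, 1.76 and 1.77, and Fbxl15, an F-box protein, at 3.13, 3.13 and 3.13. Their SDs were 0.0020 and 0.0029, among the 5 smallest of 10662 genes under the scaling used here. Each gene had 1 probe. Both SDs were below the median SD of 0.054 for repeated spots within an array. The agreement was thus closer than the spot error, and whether these genes are steadier than others was not tested.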

How the data were processed

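The 3 DMSO samples were read from the scanner text files that the authors deposited. These hold spot intensity values (processed signal) written by Agilent Feature Extraction 10.7.3.1, per the file headers, in Cy3 only. Of 59305 non-control spots, 23351 were well above background on all 3 arrays, and 23237 remained after spots with an outlier flag on any array were left out. Spots were expressed as log2 processed signal less log2 of the array's 75th percentile, repeated spots were averaged, and the brightest probe stood for a gene. The authors' deposited value table was checked to be the processed signal as a ratio to the array's median and served as an alternative. Names came from RefSeq tables by accession (27522 of 55681 probes), symbol (3423) or synonym (493), and otherwise from the files. Genes were named by rank of signal and of SD (the first 25, the 25 and 10 of largest SD, the 5 of smallest) and within 35 gene lists of 969 entries by SD and signal; clone names were counted only, save where stated. The members and lists were chosen with earlier results of these data known. No test was run, since 1 group holds no comparison; the number of arrays, 3, limits the precision. Whether the mice were housed or killed together is not given in the sources used here. Computation used Python 3.11.15, pandas 2.3.3, R 4.3.3 and limma 3.58.1 (normexp with offset 50), and the counting was tested on simulated data. Alternatives covered scaling, background correction, the deposited table, probe averaging, dim probes, promoter set size and each mouse left out; leaving out spots beside bright patches was added after seeing the data.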

Additional observations from a re-analysis of the deposited data

How the results depend on the processing

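The 359 genes with a range of 1 or more became 915 under scaling by the array median or with the deposited table, 114 with normexp, 5481 without the filter on dim probes, 146 when only genes at 0 or higher were kept, 14 at a range of 2, and 92 to 208 with 1 mouse left out; without spots beside a bright patch the count was 349. For mice 1 and 2, the 92 genes 2-fold apart became 178 (median scaling and the deposited table), 42 (normexp), 2291 (no filter) and 49 (genes at 0 or higher). For mice 1 and 3, the 208 became 753, 44, 3494 and 61 in the same order, and for mice 2 and 3 the 155 became 67 with normexp, 2405 without the filter and 91 at 0 or higher. Under median scaling the median gene's deviation was 0.25, 0.01 and -0.25 in mice 1, 2 and 3, and without the filter more and dimmer probes were counted. The causes of these rises and of the normexp values were not tested. Between 20 and 24 of the 25 brightest genes were kept when probes were averaged, with normexp, under quantile normalisation or without 1 mouse, and the median SD was 0.097 to 0.17 without 1 mouse. The range of list levels widened under median scaling and with the deposited table to 0.93 for interferon-stimulated genes, 0.89 for endothelial, 0.73 for lymphocyte and antigen presentation and 0.68 for clock genes. Relative to the median gene of each mouse, list levels were the same under median scaling as in the main scaling. For interferon-stimulated genes they were 0.25, -0.08 and -0.18 in mice 1, 2 and 3 under both. Without 1 mouse the range of list levels ran from 0.15 to 0.99 for Kupffer cells (lowest without mouse 1), 0.13 to 0.49 for interferon-stimulated genes, 0.19 to 0.55 for lipogenesis, 0.22 to 0.45 for endothelium, 0.089 to 0.51 for bile ducts, 0.10 to 0.50 for red cells, 0.14 to 0.44 for lymphocytes and 0.030 to 0.27 for the clock. With the 50 brightest genes, the HNF1 motif was in 0% and CCAAT in 62.5% of promoters. The extraction software's own error, 0.149, was larger than the spot SD of 0.054 and than the SD between mice of 0.13 for the same 139 probes. Of 510 comparisons for 47 named genes, 387 moved by less than the SD between mice. That total includes settings that mainly add or drop other genes, such as leaving off the filter on dim probes, where all 47 stayed. The deposited table repeats median scaling, and under each of these 23 of the 47 moved by more. No paired analysis was possible because only 1 group of mice was described.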

Other observations

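Some features were chosen here after their values were seen. The nuclear non-coding RNAs Malat1 and Neat1, which lie near each other on chromosome 19 and are retained in the nucleus, read -0.07, 0.03 and 1.17 and 3.57, 3.38 and 4.61 in mice 1, 2 and 3. Both were highest in mouse 3, by 2.36 and 2.34 times over the lowest mouse. Among the 359 genes with a range of 1 or more, mouse 3 was the highest in 189, mouse 1 in 91 and mouse 2 in 79, against 33.3%, 39.5% and 27.2% of all genes. This split depended on the scaling: mouse 3 was the highest in 24 of 915 such genes under scaling by the median, in 105 of 274 after quantile normalisation and in 23 of 114 with normexp. Of the 359, 42 (11.7%) belonged to any of the gene lists, which hold 4.50% of all measured genes. Because the lists were chosen with earlier results of these data known, no conclusion about them can be drawn from this share.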
